A study of Mus musculus with 6 samples.

Results

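The outer coat of the aorta, the adventitia, holds fibroblasts and, among them, cells regarded as mesenchymal progenitors. The transcripts followed here are 10 genes used as markers of these cells, Pi16, Dpp4, Cd34, Ly6a, Cd248, Scara5, Dpt, Clec3b, Pcolce2 and Gsn. They were chosen by name as markers, with earlier results of these data known, and were found in the deposited table by gene identifier, and all 10 were among its 52636 genes. Every one of them received an adjusted p-value in the comparison of genotypes, as did 17070 genes in all.

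Pi16 and Dpp4 mark fibroblasts that lie around vessels and in the connective tissue between organs, and such cells can give rise to other fibroblasts and to adipocytes. Ly6a encodes Sca-1, the surface antigen by which progenitors of the mouse adventitia are often sorted, and Cd34 is a sialomucin carried by the same cells, by endothelial cells and by blood progenitors. Adventitial fibroblasts make collagen, small proteoglycans and the proteins that help to assemble them, and Hedgehog signalling is active among the progenitors.

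Bulk RNA sequencing compared thoracic aortas of mice 12 weeks of age. The 4 WT libraries came from untreated C57BL/6J mice. The 2 KO libraries came from Tgfbr1/2iSMCKO mice, which carry loxP-flanked alleles of both Tgfbr1 and Tgfbr2, Myh11-CreERT2 and an mT/mG reporter, and which received tamoxifen i.p. at 2 mg per day for 5 days at 11 weeks. The comparison asks which transcripts of the aortic wall changed soon after TGF-β receptors were disrupted in smooth muscle cells. Cre is driven by the smooth muscle promoter Myh11, so fibroblasts are not its target, and the groups differed in the floxed alleles, the transgene, the reporter and tamoxifen, whose effects cannot be told apart. The labels number the libraries without saying more of how the animals were sampled, so the p-values measure the spread between these libraries.

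Library totals ran from 19650983 to 28860598 estimated counts, and the lowest count of any member in any library was 80. The mitochondrial share of counts was 2.62% to 4.44% among WT libraries, 3.38% in KO-1 and 11.7% in KO-2. Values below are normalised counts, which are the deposited estimated counts divided by a DESeq2 size factor for the library. The counts of Tgfbr1 and Tgfbr2 cover whole genes in all cells of the wall and do not check the deletion: the log2 fold changes were 0.20 (SE 0.20) and -0.09 (SE 0.18), with adjusted p of 0.63 and 0.838. The code of each column, which carries no sample title, was the only link between counts and libraries.

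Of the 10 genes, 3 rose in KO and none fell at an adjusted p under 0.05 (DESeq2 Wald test over all genes). Those 3 were Dpp4, Cd34 and Dpt. At an unadjusted p under 0.05 the counts were also 3 and 0, and edgeR called 0 lower. Over all genes tested, 5.71% rose and 4.69% fell by the same rule. Only Dpp4 also changed by more than 2-fold, which 3.54% of all genes did upward. Both KO libraries lay above all 4 WT libraries for Dpp4, Cd34, Dpt and Pi16, against 17.9% of all genes, and both lay below all WT libraries for none of the 10, against 16.4%. The log2 fold change was positive in 7 genes and negative in 3, with a median of 0.33 beside 0.01 over all genes tested. With edgeR's quasi-likelihood test 1 of the 10 passed, Cd34 at an adjusted p of 0.0487, while Dpp4 and Dpt were at 0.0557 and 0.0556, and 3.42% of genes rose by that test.

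**Figure D1:**
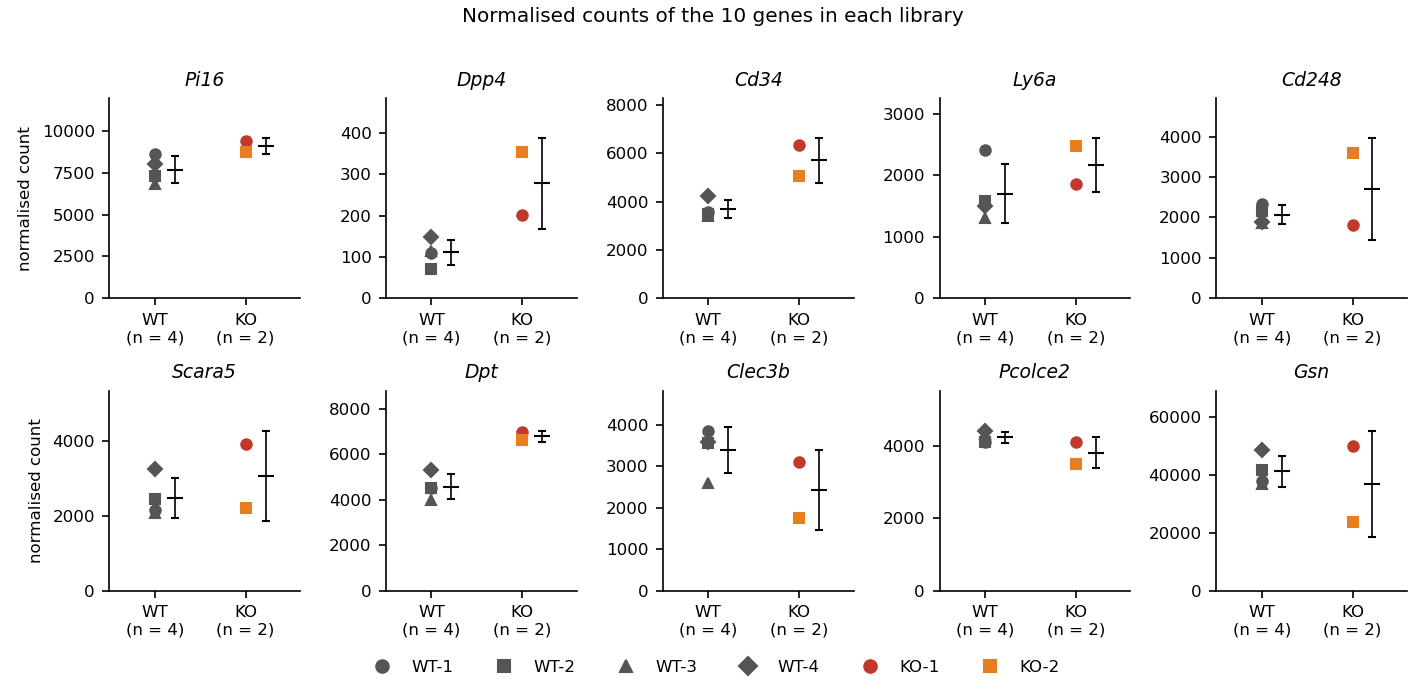
Normalised counts (y axis, a scale of its own for each gene, starting at 0) of the 10 genes in the 4 WT and 2 KO libraries (x axis). Points are libraries, and the bar beside each group is the mean with its SD. Both KO points stand above every WT point for Pi16, Dpp4, Cd34 and Dpt, and the KO points of Cd248, Scara5, Clec3b and Gsn lie far apart.

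The 6 members on the cell surface were taken first. Dpp4 (chromosome 2, 62330073 to 62412231, minus strand of GRCm38) encodes dipeptidyl peptidase 4, also known as CD26, an ectoenzyme that trims peptides and chemokines. Normalised counts in WT, in the order WT-1 to WT-4 kept throughout, were 109, 71.8, 114 and 148, and those of KO-1 and KO-2 were 200.3 and 355. Both KO values were higher than any WT value. In counts, though not as ratios, they also differed from each other more than the WT values did. The means were 111 ± 31.3 (SD, n = 4) and 278 ± 110 (SD, n = 2), a log2 fold change of 1.33 (SE 0.36, 95% confidence interval 0.61 to 2.04) with an adjusted p of 0.00532. Without KO-2 the log2 fold change was 0.87 and the adjusted p 0.299. Leaving out a KO library leaves 1 in that group, so such p-values, here and for the genes that follow, take the spread from WT and assume that the lone KO library varies likewise.

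Cd34 (chromosome 1, 194938819 to 194961279, plus strand) had normalised counts of 3569.8, 3495, 3427 and 4242 in WT and 6360.1 and 5062 in KO. The groups did not overlap, and KO-1 stood higher than KO-2. WT averaged 3684 ± 377 (SD, n = 4) and KO 5711 ± 918 (SD, n = 2), and the log2 fold change was 0.63 (SE 0.18, 95% confidence interval 0.28 to 0.99) at an adjusted p of 0.00761. Without KO-1 the log2 fold change was 0.46 and the adjusted p 0.088.

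Pi16 encodes peptidase inhibitor 16, a membrane-anchored member of the CRISP family (chromosome 17, 29317680 to 29330593, plus strand). Its normalised counts were 8628, 7323, 6835 and 8016 in WT and 9435 and 8775 in KO. Both KO libraries were above the WT range, but by little. The log2 fold change was 0.24 (SE 0.16, 95% confidence interval -0.08 to 0.57), and with an adjusted p of 0.415 it did not pass.

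Ly6a (chromosome 15, 74994877 to 74998031, minus strand) belongs to a cluster of similar Ly6 genes, among which reads may be shared. Normalised counts were 2406, 1586, 1311 and 1498 in WT, and 1863 and 2477 in KO. WT-1 exceeded KO-1, so the groups overlapped, and this gene had the widest spread among WT libraries of the 10, with a coefficient of variation of 28.5%. The log2 fold change of 0.35 (SE 0.26, 95% confidence interval -0.15 to 0.86) had an adjusted p of 0.459.

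Cd248, which encodes endosialin, a surface glycoprotein of fibroblasts and pericytes (chromosome 19, 5068078 to 5070682, plus strand), separated the KO libraries. Its normalised counts were 2344, 2167, 1857 and 1889.9 in WT, but 1821 in KO-1 and 3595 in KO-2. KO-1 lay below all WT libraries and KO-2 above them. Over both libraries the log2 fold change was 0.39 (SE 0.26, adjusted p 0.395). It was 0.80 without KO-1, with an adjusted p of 0.00139, and -0.17 without KO-2.

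Scara5, a class A scavenger receptor that binds ferritin (chromosome 14, 65666403 to 65764826, plus strand), showed the reverse order. Normalised counts were 2152, 2448, 2071 and 3263 in WT, 3929 in KO-1 and 2209 in KO-2. KO-1 was the highest library and KO-2 fell within the WT range. Over both KO libraries it came to 0.31 on the log2 scale (SE 0.26, adjusted p 0.551), and without KO-1 it was -0.17.

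The remaining 4 members act in the matrix or inside the cell. Dpt encodes dermatopontin, a matrix protein that binds decorin and takes part in collagen fibril assembly (chromosome 1, 164796644 to 164824266, plus strand). Its normalised counts were 4507, 4516, 3999 and 5312 in WT and 6975 and 6631 in KO. The KO values were close to each other and above the WT range. KO averaged 6803 ± 243 (SD, n = 2) against 4584 ± 542 (SD, n = 4) in WT, which is a log2 fold change of 0.57 (SE 0.17, 95% confidence interval 0.23 to 0.91) with an adjusted p of 0.0133. Leaving out KO-1 gave 0.53 with an adjusted p of 0.0545, and leaving out WT-2 gave 0.56 with 0.0504. Scaling on general fibroblast genes gave 0.44 with 0.0507.

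Clec3b encodes tetranectin, a secreted C-type lectin that binds plasminogen (chromosome 9, 123150946 to 123157432, plus strand), and it had the most negative log2 fold change of the members. Its normalised counts were 3863, 3575, 2590.4 and 3577 in WT, and 3110.2 and 1750.3 in KO. KO-2 was the lowest library, whereas KO-1 lay inside the WT range. The log2 fold change was -0.48 (SE 0.25, 95% confidence interval -0.98 to 0.01) with an adjusted p of 0.24. Without KO-1 it was -0.96, with an adjusted p of 0.00214.

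Pcolce2, whose product enhances procollagen C-proteinase and so the removal of procollagen propeptides (chromosome 9, 95637601 to 95698096, plus strand), had the smallest WT spread, a coefficient of variation of 3.84%. Normalised counts were 4103, 4107, 4325 and 4429 in WT and 4122 and 3510.5 in KO. KO-1 was inside the WT range and KO-2 below it. The log2 fold change was -0.15 (SE 0.16, 95% confidence interval -0.46 to 0.15; adjusted p 0.635).

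Gsn encodes gelsolin, which severs and caps actin filaments and also has a secreted plasma form (chromosome 2, 35256380 to 35307892, plus strand). Its normalised counts were 37805, 41420.1, 36623 and 48471 in WT, 49758 in KO-1 and 23699 in KO-2. KO-1 was the highest and KO-2 the lowest of the 6 libraries. Together they gave a log2 fold change of -0.16 (SE 0.26, adjusted p 0.793). It was 0.29 without KO-2, and -0.79 with an adjusted p of 0.00201 without KO-1. Gelsolin is also abundant in smooth muscle, and its counts come from the whole wall.

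**Figure D2:**
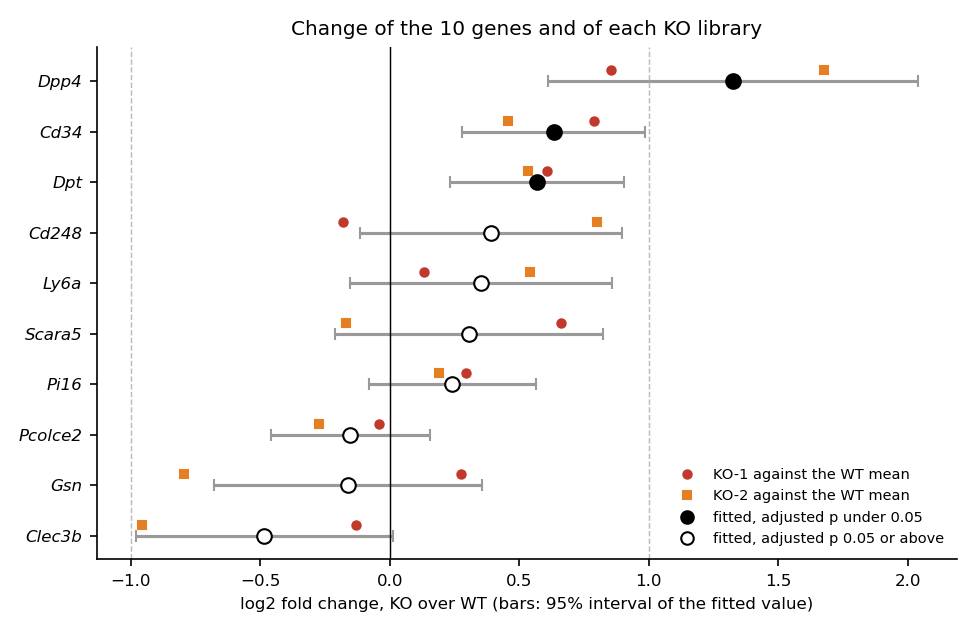
Log2 fold change of KO over WT (x axis) for the 10 genes (y axis), with 95% confidence intervals and the log2 ratio of each KO library to the WT mean. The intervals of Dpp4, Cd34 and Dpt lie above 0 and those of the other 7 include it.

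The KO libraries did not order these genes alike. KO-1 was higher than KO-2 in 7 of the 10 and lower in 3, Dpp4, Ly6a and Cd248. For the 9 members whose normalised counts averaged at least 1000, the median absolute log2 ratio of KO-1 to KO-2 was 0.41, beside 0.26 over the 4550 genes of that abundance. All 6 surface members had positive log2 fold changes, from 0.24 to 1.33, with 2 past the test, whereas 1 of the 4 others was positive and that one passed. This grouping was made after the values were seen and was not tested.

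**Figure D3:**
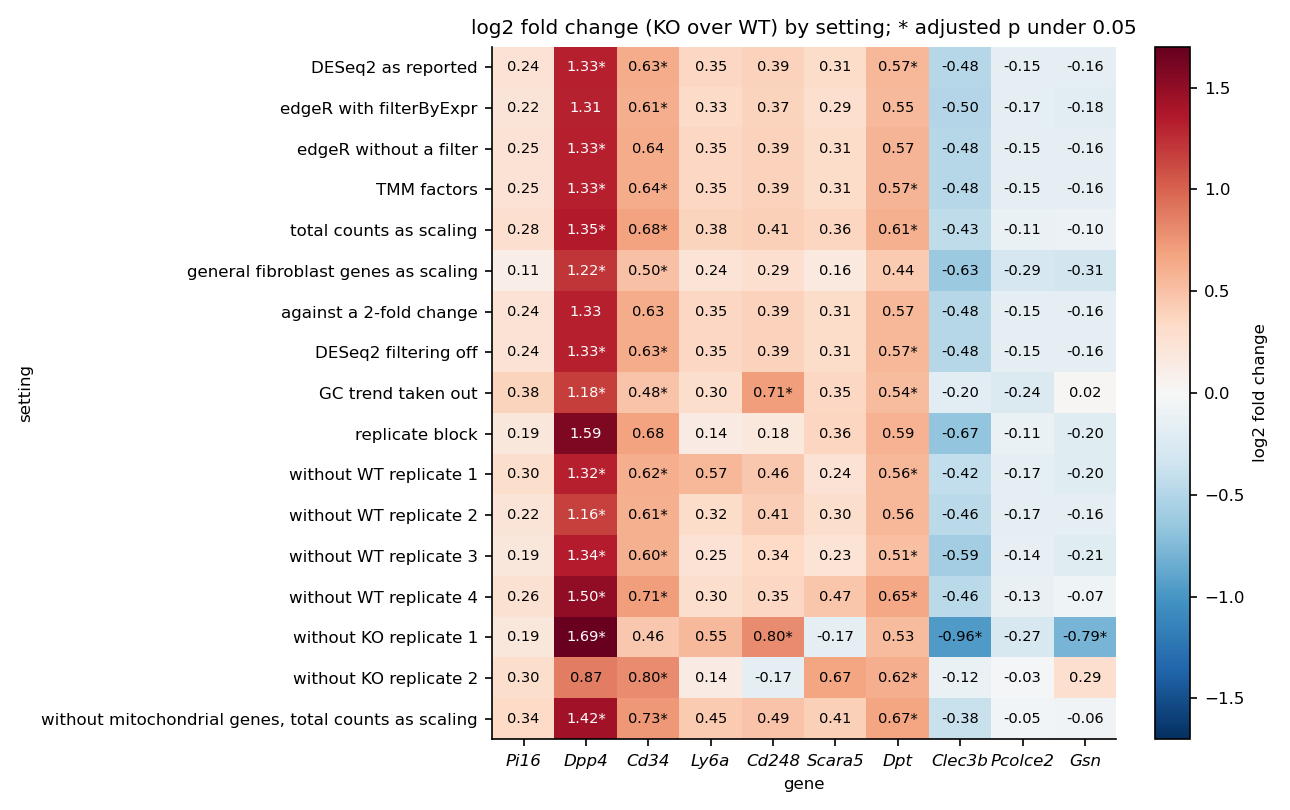
Log2 fold change of KO over WT as colour and number for each of the 10 genes (x axis) under the reported analysis, in the top row, and 16 alternatives (y axis), with an asterisk where the adjusted p was under 0.05. Dpp4 passed in 12, Cd34 in 12 and Dpt in 9 of the 16 alternatives, and the values of Gsn, Scara5 and Cd248 fall on both sides of 0.

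The 3 genes that rose were read at their RefSeq start sites, since they moved in the same direction. RefSeq promoters on GRCm38.p6 were at hand for 6 of the 10 members, and the 250 bases before the start are given for these 3, 5′ to 3′ on the strand of the gene. They lie at chr2:62412232-62412481 (minus strand) for Dpp4, chr1:194938571-194938820 (plus strand) for Cd34 and chr1:164796413-164796662 (plus strand) for Dpt. Capitals mark matches on either strand to any of 6 short motifs. They were the letters TATAAA of the promoter element near many starts, the letters CCAAT bound by nuclear factor Y, the GC-rich string GGGCGG bound by Sp1, the string TGANTCA read by AP-1 factors, the string CAGAC bound by Smad proteins, and the E-box, which is CANNTG and is read by basic helix-loop-helix factors. An overlap between motifs was marked once.
Dpp4: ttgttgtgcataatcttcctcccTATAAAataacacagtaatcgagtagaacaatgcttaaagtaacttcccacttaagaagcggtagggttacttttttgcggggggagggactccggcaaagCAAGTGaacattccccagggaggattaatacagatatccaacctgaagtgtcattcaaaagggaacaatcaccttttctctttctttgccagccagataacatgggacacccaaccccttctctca
Cd34: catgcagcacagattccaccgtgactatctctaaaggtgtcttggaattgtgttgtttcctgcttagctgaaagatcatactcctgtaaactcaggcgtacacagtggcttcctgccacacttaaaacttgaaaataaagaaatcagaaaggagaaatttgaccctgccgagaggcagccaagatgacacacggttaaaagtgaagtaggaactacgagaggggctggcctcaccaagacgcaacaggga
Dpt: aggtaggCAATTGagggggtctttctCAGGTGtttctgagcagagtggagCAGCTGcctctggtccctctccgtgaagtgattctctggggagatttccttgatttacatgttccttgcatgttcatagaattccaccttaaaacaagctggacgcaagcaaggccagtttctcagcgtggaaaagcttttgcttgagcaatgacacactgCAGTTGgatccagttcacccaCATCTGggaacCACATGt

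Dpp4 had the TATAAA string, far upstream of its start, and 1 E-box. Cd34 had none of the 6 strings, and Dpt had 6 E-boxes and none of the other strings. Over 32851 promoters of the same length, TATAAA was present in 12.4%, CCAAT in 33.8%, GGGCGG in 32.7%, TGANTCA in 6.75%, CAGAC in 42.2% and CANNTG in 66.2%, and 0.274% held at least as many E-boxes as Dpt. None of the 6 strings was in all 3 windows. The E-box share for Dpt was taken at the count found in Dpt itself and is a description. Pcolce2 and Gsn, which were not called, also held E-boxes, and Pi16 held none. These are matches of letters and do not show that a factor binds.

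Levels were compared between members as normalised counts per kilobase of annotated exon. In WT, Gsn stood highest at 13012 per kilobase, followed by Clec3b at 3429 and Dpt at 2659, whose ranges over the 4 libraries overlapped. Ly6a at 1411 and Pi16 at 1210.0 per kilobase came next and also overlapped, as did Pcolce2 at 917 with Cd248 at 793, and Cd34 at 505 with Scara5 at 408. Dpp4 was far the scarcest at 17.5 per kilobase. In KO, Dpt at 3946 stood above Clec3b at 2450, and the KO libraries did not overlap between them, while Gsn kept the first place and Dpp4 the last at 44.0. The lengths used merge all annotated exons of a gene, and the order depends on them. With the longest transcript instead, Pi16 was at 1928 per kilobase in WT, above Ly6a at 1780. Cd34 was then at 1203, above Pcolce2 at 956 and Cd248 at 793.

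**Figure D4:**
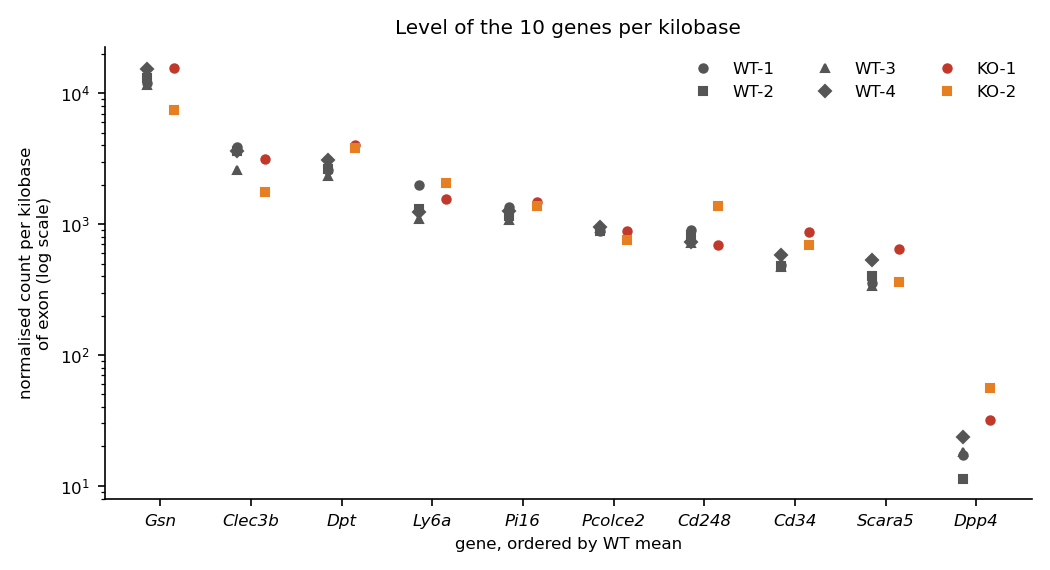
Normalised count per kilobase of exon (log axis) for the 10 genes in WT and KO libraries, ordered by the WT mean. Gsn is at 13012 and Dpp4 at 17.5 per kilobase in WT, and the WT points of Clec3b and Dpt, Ly6a and Pi16, Pcolce2 and Cd248, and Cd34 and Scara5 overlap.

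Other genes linked to the adventitial progenitor state showed 4 of 16 higher in KO and none lower, with a median log2 fold change of 0.42, and 8 higher and 0 lower at an unadjusted p under 0.05. With edgeR 4 were higher and 0 lower. They were Cd55, a complement regulator that marks the same Dpp4-positive cells (1.39, adjusted p 4.2e-05), Il33, an alarmin of stromal nuclei (1.04), Ackr3, a chemokine-scavenging receptor (1.03), and Ly6c1, a Ly6 surface antigen also found on endothelium (0.81). Cd55 had normalised counts of 192, 181, 240 and 313 in WT and 521 and 694 in KO, with no overlap between the groups. The most abundant gene of the list per length, Efhd1, had a log2 fold change of -0.08 (adjusted p 0.862). The summed level of the list was 41900 to 48485 in WT, 54248 in KO-1 and 51889 in KO-2.

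Of the genes of fibroblasts in general, 2 of 16 were higher and 2 lower, with a median log2 fold change of 0.23. Lum, the collagen-binding proteoglycan lumican, rose by 0.997 on the log2 scale (2622 ± 373 to 5234 ± 282, adjusted p 4.7e-06), and the mesenchymal transcription factor Tcf21 rose by 1.53. The laminin chain Lamc3 fell by 0.99 on the log2 scale and Islr fell by 0.47. With edgeR 2 of the 16 were higher and 0 lower, so neither fall was called. Col1a1, the most abundant, had a log2 fold change of 0.34 (adjusted p 0.274). Among 12 genes of activated fibroblasts and myofibroblasts, the matrix genes Cilp (2.04) and Col12a1 (1.55) and the transcription factor Meox1 (1.74) rose, while the matrix genes Fn1 (-0.75), Tnc (-1.20) and Postn (-0.71) fell. The median of these 12 was -0.20, and edgeR called 2 higher and 3 lower. The fallers are also made by smooth muscle cells, so their level in the whole wall is not that of fibroblasts alone.

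Hedgehog signalling genes, of which 13 of 14 had counts, showed 1 higher and none lower, with a median of -0.01, and 2 higher and 1 lower at an unadjusted p under 0.05. With edgeR 1 was higher and 0 lower. The 1 that rose was the ligand Dhh (206 ± 33.5 to 534 ± 78.8, log2 fold change 1.38, adjusted p 2.6e-06), which endothelial and Schwann cells are known to make. Gli1, a target and marker of Hedgehog-responsive adventitial cells, had normalised counts of 1496, 1292, 1001 and 1109 in WT and 844 and 828 in KO, a log2 fold change of -0.55 with an adjusted p of 0.0746. It thus lay below the WT range in both KO libraries without passing the test.

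Relatives of the 10 genes by sequence family gave 6 higher and 2 lower of 31 tested, but 4 higher and 1 lower with edgeR (12 and 2 at an unadjusted p under 0.05). Ly6e rose by 1.94 (adjusted p 1.1e-06), from 410, 975, 1140 and 638 in WT to 3633 and 2434 in KO, as did Ly6c1 and the low Ly6c2, which had 0 to 3.30 in WT and 12.1 and 63.9 in KO. Msr1, a scavenger receptor of macrophages related to Scara5, rose by 1.29, and Thbd and Cd93, C-type lectin-like surface proteins related to Cd248, rose by 0.68 and 0.72. Crispld2, which shares the CRISP fold with Pi16, fell by 0.95 (adjusted p 2.6e-05), and the procollagen C-proteinase Bmp1, whose activity the Pcolce2 product enhances, fell by 0.56. Pcolce, the other enhancer, and Fap, a close relative of Dpp4, had log2 fold changes of 0.21 (adjusted p 0.736) and 0.28 (adjusted p 0.542).

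Bulk libraries cannot tell more cells of a type from more RNA per cell, and markers of other cell types moved with the groups. Endothelial markers, which bear on Cd34 and Ly6a, had 4 of 12 higher (Kdr, Cdh5, Vwf and Tie1) and none lower (3 and 0 with edgeR, 7 and 2 at an unadjusted p under 0.05). Both KO libraries lay above all WT libraries for 7 of the 12 and below them for 2, Erg (-0.57) and Egfl7 (-0.48). The shares over all genes were 17.9% and 16.4%. The summed level of the list was 17465 to 31929 in WT, 41847 in KO-1 and 39632 in KO-2. Mesothelial markers had 9 of 10 higher (5 with edgeR), with sums of 324 to 661 in WT, 1323 in KO-1 and 3809 in KO-2, and of these Krt8 and Wt1 were at 0 in some WT libraries. KO-2 thus had the higher level of this list, as it had of every cell type list below but the cardiac one. It was also the higher KO library for Dpp4, Ly6a and Cd248. The other 7 members were higher in KO-1.

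Summed levels of fat markers were highest in KO-2, as were those of preadipocytes, a fate of the cells that Pi16 and Dpp4 mark, but not every gene followed. Plin4, the most abundant white adipocyte marker, was at 9959.8 in KO-1 and 9501 in KO-2 against 11895 to 12710.3 in WT, the brown adipocyte gene Dio2 was higher in KO-1 than in KO-2 (3153 and 2359), and the preadipocyte gene Cebpa was lowest in KO-2 (125). The preadipocyte list had 5 of 8 higher (4 with edgeR), with Dlk1 at 0 in 1 WT library. Its sums were 5774 to 7989.8 in WT, 11036 in KO-1 and 42279.5 in KO-2. Of the KO-2 sum, Fabp4 held 23125 and Lpl 12981. Zfp423 (log2 fold change 0.26), Dlk1 (0.29) and Cebpa (-0.11) were not called. White adipocyte markers, with 2 of 9 higher (1 with edgeR), summed to 14000.0 to 16421 in WT, 14188 in KO-1 and 32103 in KO-2. Plin4 held most of this sum in each WT library and in KO-1, and every other gene of the list was highest in KO-2. Brown adipocyte markers, with 6 of 8 higher (5 with edgeR), summed to 1226 to 1594 in WT, 4116 in KO-1 and 14765 in KO-2, while Ucp1 was at 0 in WT-4 and Elovl3 at 0 in WT-1 to WT-3 and KO-1. Macrophage markers had 10 of 11 higher (5 with edgeR), with sums of 7859 to 9176 in WT, 14464 in KO-1 and 16531 in KO-2.

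Cardiac muscle markers, with 5 of 10 higher (4 with edgeR), had their highest sum in KO-1, at 30541 against 3107 to 4491 in WT and 4198 in KO-2. KO-2 also lay above all WT libraries for Tnnt2, Tnni3 and Actc1, and exceeded the WT range for none of the other genes. Its sum was lowered by Ryr2, at 1368 in KO-2 against 2291 to 2667 in WT. Sln and Nppa were at 0 in some libraries. Red blood cell markers, with 4 of the 4 tested higher by both tools, summed to 859 to 5989.6 in WT, 11076 in KO-1 and 61684 in KO-2, with Hba-a2 at 0 in WT-3 and WT-4. Lymphocyte markers, which bear on Dpp4, had 0 of 6 tested called, sums of 29.6 to 74.7 in WT, 85.7 in KO-1 and 355 in KO-2, and Cd3d, Cd3e, Cd3g, Cd79a, Cd79b and Ms4a1 at 0 in some WT libraries. At an unadjusted p under 0.05 there were 3 higher, and edgeR called 0. Smooth muscle and Schwann markers had no call with DESeq2 or edgeR (1 higher and 3 lower, and 1 higher, at an unadjusted p under 0.05), and their sums of 881692 and 1037671, and of 3134 and 6129.8, in KO-1 and KO-2 stood beside 920475 to 1079767 and 2583 to 6495 in WT. Pericyte markers had 1 higher and 2 lower of 6 tested (Abcc9 0.66, Cspg4 -1.30 and Pdgfrb -0.46) but 0 higher and 1 lower with edgeR. They summed to 74644 to 85795 in WT, 52653 in KO-1 and 67701 in KO-2. Rgs5 and Cspg4 averaged 31106 and 22507 in WT, while Higd1b was at 0 throughout WT. The counts come from the whole wall, so these sums are not a measure of pericytes alone. The part of these cell types in the values of the 10 genes was not tested.

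**Figure D5:**
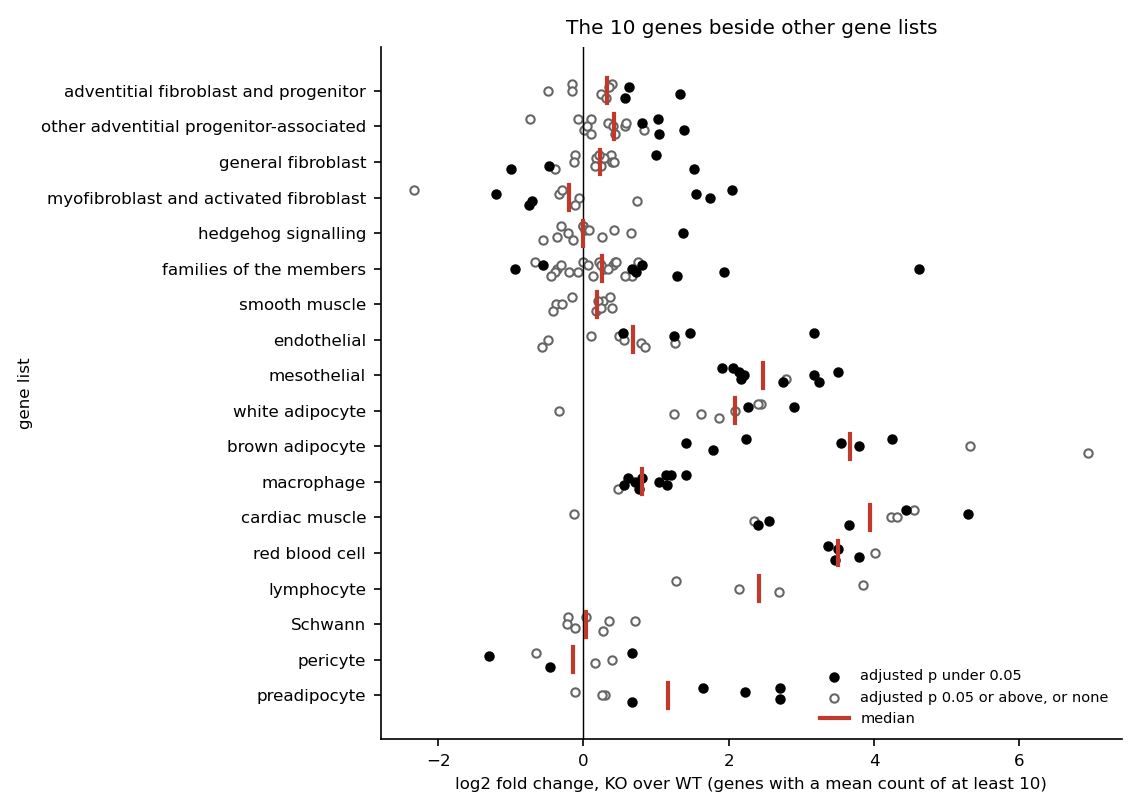
Log2 fold change of KO over WT (x axis) of the 10 adventitial genes and the genes of 17 other lists (y axis), filled where the adjusted p was under 0.05, with a red bar at the median of each list. The adventitial genes have a median of 0.33, below the medians of the mesothelial list at 2.48 and the preadipocyte list at 1.16.

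Among the 10 genes whose log2 profile over the 6 libraries was most like the mean profile of the members, out of 11437 whose normalised counts averaged at least 100, were Mospd2 (Pearson r 0.998), Tor1aip1 (0.991), Ano2 (0.986), Csf1r (0.977), Zfp809, Epb41l4b, Cish, Emilin2 and Thoc5. The mean profile was lowest in WT-3 at -0.25 and highest in KO-1 at 0.25, on the log2 scale and centred on the 6 libraries. Of the genes named, only Csf1r, the macrophage receptor for colony-stimulating factor, passed the test, with a log2 fold change of 0.61 (adjusted p 0.0301). These correlations rest on 6 libraries in 2 groups and are given as a description.

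Antisense and other genes annotated across the members had little signal where they were in the table. The highest were Gm43128 at Gsn, at 18.5 in WT, and Gm16897 at Cd34, at 14.8 in KO (normalised counts), far below the members they overlap.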

How the data were processed

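Thoracic aortas gave 4 WT and 2 KO bulk RNA libraries. The authors trimmed reads with Trim Galore, mapped them to GRCm38 with HISAT2 and deposited an estimated count per gene from StringTie on GENCODE M15 models. The counts were whole numbers, not scaled for depth, and whether strand was used is not given in the sources used here. Columns carry codes, and their match to libraries was inferred from these. Names, positions and lengths came from GENCODE M21 (52489 of 52636 identifiers matched).

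DESeq2 1.42.0 in R 4.3.3 compared KO with WT on all genes (Wald test, group only, default scaling and filtering). Calls were Benjamini-Hochberg adjusted p under 0.05 and, for differential expression, a change above 2-fold, as in the study. Ratios of single libraries used a pseudocount of 0.5. Alternatives included edgeR 4.0.16 (quasi-likelihood), a GC trend removed by a loess fit for each library, other scalings and each library left out. Members, lists and the rule for named genes (all members, and from each list its most abundant gene and up to 8 called genes) were chosen with earlier results of these data known. List medians cover genes whose normalised counts averaged at least 10. The analysis was run on simulated counts that had the same spread for every gene and in both groups. That setting does not cover the differences between the KO libraries seen here. Promoter sequences came from RefSeq (GRCm38.p6). Not every gene that the rule allows is named in the text.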

Additional observations from a re-analysis of the deposited data

Results flagged for a closer look

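In WT-3 the summed normalised count of the smooth muscle markers was 1079767, set apart from the other WT libraries, which ran from 920475 to 944874. It was the only 1 of 27 groups of 4 WT values checked in which 1 library stood so far from the rest, and chance flags about 1 in 20, or 1.35 of 27. None of the 10 adventitial genes was set apart in this way in WT.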

How the results depend on the processing

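The log2 fold changes of Dpp4, Cd34, Dpt, Pi16 and Ly6a stayed positive, and those of Clec3b and Pcolce2 negative, under all 16 alternatives. Of the 3 members past the adjusted p, 1 remained with edgeR and its filter (Cd34), 1 with edgeR without a filter (Dpp4, adjusted p 0.0489), 0 when tested against a 2-fold change and 0 with the replicate block. The count past 2-fold, 1, became 0 with edgeR and its filter, against a 2-fold change and with the replicate block, and the 962 genes called by both thresholds became 633, 114 and 561 in that order. The same numbers in WT and KO do not mark shared animals, so the block is no pairing. Deviations of same-numbered libraries from their group means had r = -0.13 and -0.018 over 11447 genes. With 2 KO libraries the deviations of KO-1 and KO-2 mirror each other, so these values cannot decide on pairing. With general fibroblast genes as scaling, which moved the median of all genes by -0.13, the median of the members was 0.20, and with the replicate block it was 0.19. That scaling put 48.8% of all calls in the higher direction, against 62.8% in the reported analysis, and total counts without mitochondrial genes, chosen after seeing the data, put 73.2% there. Leaving out 1 library at a time gave 2 to 4 members past the adjusted p, 0 to 1 past 2-fold, a median of 0.24 to 0.38, and 636 to 1284 genes called, the extremes of the last without KO-2 and KO-1. The 4 members past the adjusted p without KO-1 were Dpp4 and Cd248, higher, and Clec3b and Gsn, lower, and no longer included Cd34 or Dpt. A fit without 1 KO library has no spread within KO. With the GC trend taken out Gsn reversed to 0.023, Cd248 gained a call (0.71, adjusted p 0.0472), which made 4 members higher, and Clec3b was at -0.20. Leaving out single libraries moved Gsn from -0.79 to 0.29, Scara5 from -0.17 to 0.67 and Cd248 from -0.17 to 0.80. The cause of these changes was not tested. With 2 KO libraries the spread within KO is poorly known, and depth was least for Dpp4, whose lowest count was 80.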
